A study of Mus musculus with 9 samples.

Results

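The 6 mouse genes of the platelet-derived growth factor (PDGF) system are described here: the receptors Pdgfra and Pdgfrb and the ligands Pdgfa, Pdgfb, Pdgfc and Pdgfd. They were taken by gene symbol, with no use of their measured values, from the 46517 gene identifiers in the count files. All 6 had enough reads to be among the 17947 genes tested. The data are RNA-seq counts from glioblastoma tumours of 3 mouse models, with 3 tumour libraries per model, all of a mixed strain background. The models are named for a Cre recombinase: Synapsin-cre, Nestin-creERT2 and NG2-creERTM, and the study compared tumours by the cell they started from. Synapsin is a gene of neurons, Nestin of neural stem and progenitor cells and NG2 (Cspg4) of oligodendrocyte precursors and pericytes. CreERT2 and CreERTM are forms of Cre that act after tamoxifen, while plain Cre acts wherever its promoter does. The labels give no animal age, time of induction or conditional alleles, no normal brain was analysed here, and the cell of origin is known only through the driver.

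PDGFs are dimers of ligand chains that bind paired receptor tyrosine kinases on the cell surface and drive division and migration. The A and C chains act on the alpha receptor, the D chain acts mainly on the beta receptor, and the B chain binds both. In the brain the alpha receptor is a defining protein of oligodendrocyte precursors, with PDGF-A as their mitogen. Endothelial cells release PDGF-B, which recruits pericytes carrying the beta receptor. Gain of the alpha receptor gene is a known event in a subset of human glioblastomas.

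Libraries held 23557398 to 41099967 reads counted in genes, and the most alike pair differed far beyond sampling noise (chi-square 217 per degree of freedom), so no library was a copy of another. Levels are given as CPM, counts per 1000000 reads in genes with libraries scaled to one another,, and for comparisons between genes as CPM per kilobase of exon. The glial genes Gfap (lowest 94.1 CPM) and Olig2 (lowest 39.0 CPM) were present in every library. Synapsin-cre replicate 1 stood apart: its 14 neuron markers summed to 8659 CPM against 524 to 2091 CPM in the other 8 libraries, and its proliferation markers to 180 CPM against 1421 to 3221 CPM. Several results that rest on this library are given with and without it. Replicate numbers only name the libraries, and the labels do not say whether each library is its own animal; the p-values therefore measure only the spread between these libraries. Because the tumours are bulk tissue, fewer cells of a type and less RNA per cell cannot be told apart.

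Positions are those of GRCm38 in the GENCODE vM21 annotation. Pdgfra lies at chr5:75152292-75198215 on the plus strand and Pdgfa at chr5:138976014-138997370 on the minus strand. Pdgfb is at chr15:79995874-80014977 (minus), Pdgfc at chr3:81036416-81214040 (plus) and Pdgfd at chr9:6168584-6378850 (plus). The bases just before the RefSeq start (GRCm38.p6) are printed for Pdgfra and Pdgfd, the pair of genes whose levels spread most over the libraries. Both are plus-strand stretches that end at the base before the start, Pdgfra at chr5:75152001-75152250 and Pdgfd at chr9:6168236-6168485. Capitals mark an E-box in Pdgfra, and a SOX motif followed by a TATA box in Pdgfd.
Pdgfra: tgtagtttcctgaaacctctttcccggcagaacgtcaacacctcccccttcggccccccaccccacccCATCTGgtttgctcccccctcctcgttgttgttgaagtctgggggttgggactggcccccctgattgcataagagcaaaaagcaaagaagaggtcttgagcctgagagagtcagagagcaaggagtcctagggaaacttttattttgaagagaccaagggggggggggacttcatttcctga
Pdgfd: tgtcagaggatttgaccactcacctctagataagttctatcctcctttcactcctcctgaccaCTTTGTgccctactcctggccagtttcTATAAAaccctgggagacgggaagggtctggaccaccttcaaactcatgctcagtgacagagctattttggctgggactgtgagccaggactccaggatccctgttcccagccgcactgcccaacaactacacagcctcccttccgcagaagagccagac

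The motifs searched, on both strands, were the E-box CANNTG, which basic helix-loop-helix factors such as OLIG2 bind, the SOX motif ACAAAG, the GC box GGGCGG and the TATA box TATAAA. The E-box is palindromic and occurred in 66.2% of the 32851 windows of 250 bases in the RefSeq table. The SOX motif occurred in 16.5%, the TATA box in 12.4% and the GC box in 32.7% of them. Windows were read for 4 members, and none for Pdgfrb or Pdgfb. The Pdgfra window held 1 E-box and none of the other motifs, and Pdgfd was the only one of the 4 with a TATA box. The Pdgfc window held 1 SOX motif. The windows of Pdgfa, which has 2 in the table, were 66.4 and 72.4% G and C, against a median of 52.4%, and held 1 and 2 GC boxes. A match describes the letters only.

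Pdgfra, the receptor for PDGF-A and PDGF-C, had the most reads of the 6 members in every library and varied widely between tumours of the same model. Differences between models accounted for 31.4% of its variance in log2 CPM, a share that 46.1% of tested genes reached. In the Synapsin-cre libraries it measured 128, 918 and 269 CPM in replicates 1, 2 and 3. Nestin-creERT2 libraries gave 313, 941 and 2024 CPM. NG2-creERTM libraries gave 1810, 624 and 640 CPM. The ranges of all 3 models overlapped, and each model held a library of at least 918 CPM. Within a model the highest library exceeded the lowest by 7.19-fold in Synapsin-cre, 6.47-fold in Nestin-creERT2 and 2.90-fold in NG2-creERTM. Over all 9 libraries the spread was 15.8-fold, from 2887 reads in the lowest library to 84953 in the highest, and 18.8% of tested genes spread as widely on the log2 scale. Means were 438 ± 422, 1093 ± 865.5 and 1025 ± 680 CPM in Synapsin-cre, Nestin-creERT2 and NG2-creERTM (SD, n = 3 each). In edgeR's quasi-likelihood fit, whose p-values were adjusted over all genes tested by the Benjamini-Hochberg method, the NG2-creERTM to Nestin-creERT2 difference was -0.09 ± 0.85 (log2 fold change ± SE, adjusted p = 0.980). Synapsin-cre against Nestin-creERT2 gave -1.32 ± 0.87 (edgeR adjusted p = 0.624), and -0.87 ± 0.84 without Synapsin-cre replicate 1 (edgeR adjusted p = 0.587). Synapsin-cre against NG2-creERTM gave -1.23 ± 0.87 (edgeR adjusted p = 0.575), and -0.79 ± 0.84 without that library. Single libraries moved both values by more than 1.5 times in either direction. Leaving out 1 library at a time, the difference from Nestin-creERT2 ran from -2.50 without Synapsin-cre replicate 2 (edgeR adjusted p = 0.491) to -0.52 without Nestin-creERT2 replicate 3 (edgeR adjusted p = 0.892). That from NG2-creERTM ran from -2.41 without Synapsin-cre replicate 2 to -0.55 without NG2-creERTM replicate 1.

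**Figure D1:**
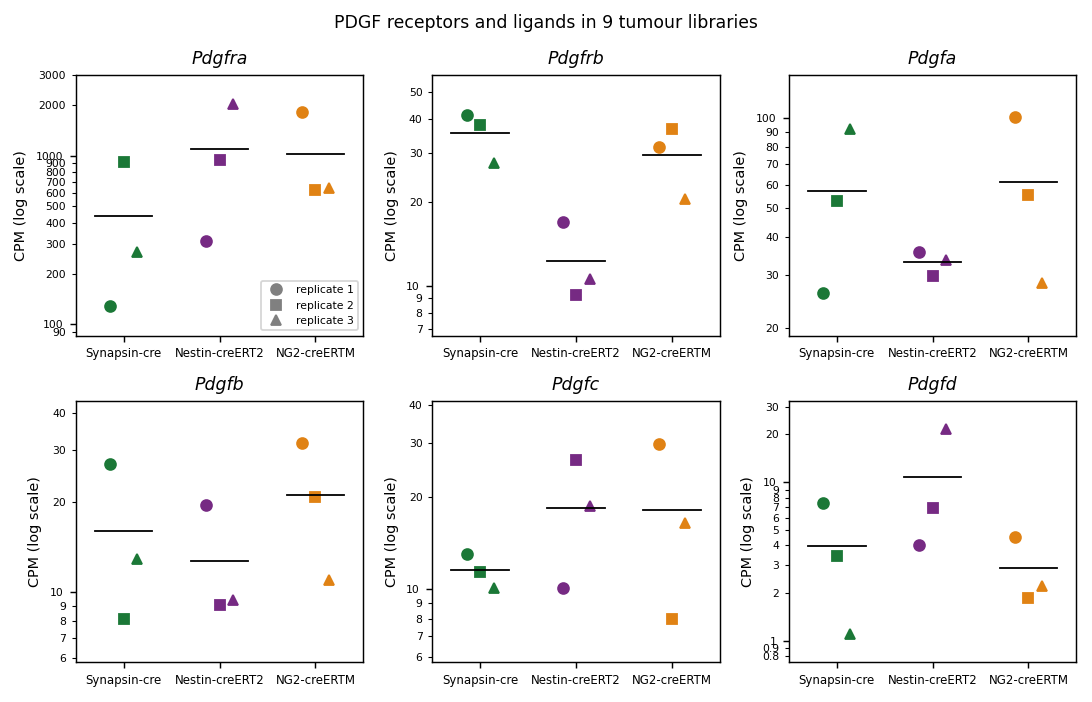
Levels of the 6 PDGF genes in CPM (log axis, a separate scale for each gene) in the 9 libraries, with 1 symbol per library, its shape giving the replicate number, and a line at the mean of each model. The 3 Nestin-creERT2 libraries lie below all others for Pdgfrb, at 9.25 to 17.0 CPM, while the models overlap for the other 5 genes.

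Pdgfrb (chr18:61045150-61085061, plus strand), the receptor of pericytes and fibroblasts, was lowest in the 3 Nestin-creERT2 libraries. These held 17.0, 9.25 and 10.6 CPM. Synapsin-cre libraries held 41.2, 37.9 and 27.6 CPM, and NG2-creERTM libraries 31.5, 36.6 and 20.5 CPM. No Nestin-creERT2 library reached the lowest of the other 6, a pattern shared by 448 of the 17947 genes (2.5%). Pdgfrb was the only member whose model ranges did not overlap in a comparison. Of all genes, 11% lay higher without overlap in NG2-creERTM than in Nestin-creERT2 and 14.2% lower. Between Synapsin-cre and Nestin-creERT2 these shares were 8.46 and 6.26%, and between Synapsin-cre and NG2-creERTM 8.04 and 5.76%. Mean levels were 12.3 ± 4.15 CPM in Nestin-creERT2, 35.6 ± 7.09 in Synapsin-cre and 29.55 ± 8.22 in NG2-creERTM (SD, n = 3 each).

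The Pdgfrb difference did not pass the threshold of 0.05 in edgeR after adjustment over all genes. It was 1.27 ± 0.38 for NG2-creERTM against Nestin-creERT2 (log2 fold change ± SE, unadjusted p = 0.00791, edgeR adjusted p = 0.318). Synapsin-cre against Nestin-creERT2 gave 1.53 ± 0.38 (unadjusted p = 0.00269, edgeR adjusted p = 0.285), and 1.41 ± 0.39 without Synapsin-cre replicate 1 (edgeR adjusted p = 0.0939). The adjusted p ran from 0.0390 to 0.716 and from 0.00982 to 0.771 over the alternative analyses of these comparisons, the lowest in each being that of DESeq2. DESeq2 gave 1.27 (adjusted p = 0.0390) and 1.52 (adjusted p = 0.00982), where it called 3.81% and 3.1% of the genes it gave an adjusted p. On counts simulated for these comparisons with 100 genes changed 4-fold and 100 changed 16-fold, 71 of 211 and 75 of 217 DESeq2 calls were false. That share depends on how many genes differ, which is not known for these data, so it does not carry over to the calls here. DESeq2's calls are given as an alternative only. Synapsin-cre and NG2-creERTM were 0.27 ± 0.37 apart (edgeR adjusted p = 0.802), and their ranges overlapped. Differences between models accounted for 80.8% of the variance of Pdgfrb in log2 CPM, a share that 2.21% of tested genes reached. For the 4 ligands that share was 16.4 to 39.3%, beside a median of 28.8% over all genes.

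Among the tests of the 3 pairs of models, edgeR called 0 genes of the whole set (0% in each pair), and the lowest adjusted p was 0.102, 0.118 and 0.357. Unadjusted p was under 0.05 for 11.3% of genes in NG2-creERTM against Nestin-creERT2, where 2 of the 6 members, Pdgfrb and Pdgfd, were among them. It was under 0.05 for 10.8% in Synapsin-cre against Nestin-creERT2, where Pdgfrb was the 1 member, and for 12.8% in Synapsin-cre against NG2-creERTM, with no member. The test of any difference among the 3 models was under 0.05 before adjustment for 13.1% of genes, Pdgfrb among them. The edgeR adjusted p of Pdgfrb in that test was 0.314. DESeq2 called 621, 506 and 438 genes in the 3 pairs, the last being 2.52% of those with an adjusted p. Of 100 genes simulated with a 4-fold change, edgeR's test recovered 10 to 11, and of 100 with a 16-fold change 68 to 76. A 4-fold difference in a PDGF gene could therefore be present and not be called with these 9 libraries.

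**Figure D2:**
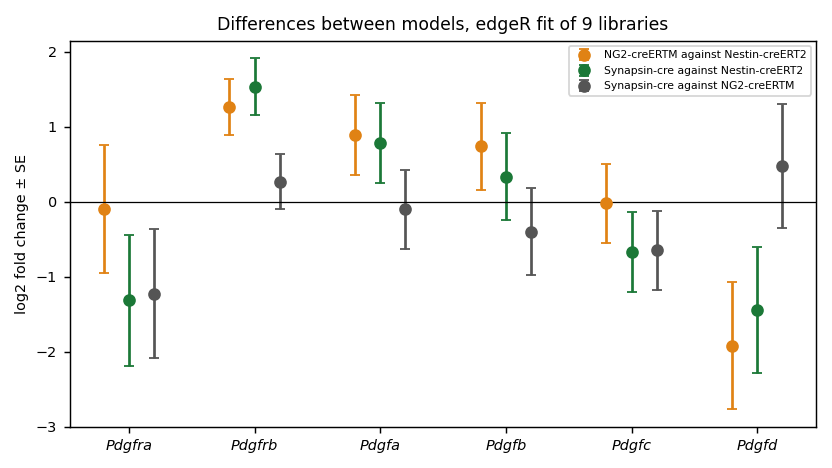
Log2 fold changes of the 6 PDGF genes between models from the edgeR fit of all 9 libraries, with standard errors worked back from its F statistics. Colours mark the 3 pairs of models. Pdgfrb lies 1.27 and 1.53 above Nestin-creERT2 with short bars, while the bars of Pdgfra and Pdgfd are the widest, at 0.83 to 0.87.

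Pdgfa, the precursor mitogen, had the highest level per length of the ligands. It measured 26.2, 53.05 and 92.0 CPM in Synapsin-cre and 100.4, 55.3 and 28.2 CPM in NG2-creERTM. It was even in Nestin-creERT2, at 35.8, 29.7 and 33.7 CPM (33.1 ± 3.09, SD, n = 3). The Nestin-creERT2 values lay inside the range of either other model, so the models overlapped. The edgeR difference was 0.89 ± 0.53 for NG2-creERTM against Nestin-creERT2 (adjusted p = 0.571). Synapsin-cre against Nestin-creERT2 gave 0.79 ± 0.53 (edgeR adjusted p = 0.632), and 1.12 ± 0.48 without Synapsin-cre replicate 1 (edgeR adjusted p = 0.219). Synapsin-cre against NG2-creERTM was -0.10 ± 0.53 (edgeR adjusted p = 0.957) and took the other sign, 0.23 ± 0.48, without that library. Without Synapsin-cre replicate 3, the library highest for Pdgfa in its model, these differences were 0.22 and -0.66, and without NG2-creERTM replicate 1 the difference of NG2-creERTM from Nestin-creERT2 was 0.32. On the strand opposite Pdgfa lies the antisense gene 6330403L08Rik, at 12.1 to 45.0 CPM. The counts used here are those of 1 strand, which keeps the pair apart except for reads put on the wrong strand.

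Pdgfb, the endothelial ligand for pericytes, measured 26.9, 8.08 and 12.9 CPM in Synapsin-cre, 19.6, 9.005 and 9.39 CPM in Nestin-creERT2 and 31.6, 20.8 and 10.9 CPM in NG2-creERTM. The models overlapped. The edgeR differences were 0.74 ± 0.58, 0.33 ± 0.58 and -0.40 ± 0.58 for NG2-creERTM against Nestin-creERT2, Synapsin-cre against Nestin-creERT2 and Synapsin-cre against NG2-creERTM (adjusted p = 0.679, 0.876 and 0.812). Without Synapsin-cre replicate 1 the difference of Synapsin-cre from Nestin-creERT2 was -0.28 ± 0.55 and that from NG2-creERTM -1.01 ± 0.56 (edgeR adjusted p = 0.808 and 0.513). Leaving out any 1 library, the 3 differences ran from 0.31 to 1.20, -0.28 to 0.74 and -1.01 to -0.05.

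Pdgfc and Pdgfd are the chains secreted with a CUB domain that proteases must cut off before they can bind a receptor. Pdgfc measured 13.1, 11.4 and 10.1 CPM in Synapsin-cre. It measured 10.1, 26.4 and 18.7 CPM in Nestin-creERT2 and 29.8, 8.004 and 16.5 CPM in NG2-creERTM. The range of Synapsin-cre lay inside that of NG2-creERTM, and the edgeR differences were -0.02 ± 0.53 for NG2-creERTM against Nestin-creERT2, -0.68 ± 0.53 for Synapsin-cre against Nestin-creERT2 and -0.65 ± 0.53 for Synapsin-cre against NG2-creERTM (adjusted p = 0.991, 0.687 and 0.636).

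Pdgfd was the member with the fewest reads, 37 to 907 per library, and the one with the widest relative spread, 19.4-fold. It measured 7.44, 3.42 and 1.11 CPM in Synapsin-cre, 4.055, 6.93 and 21.6 CPM in Nestin-creERT2 and 4.53, 1.86 and 2.23 CPM in NG2-creERTM. The library highest for Pdgfd, Nestin-creERT2 replicate 3, was also the library highest for Pdgfra. Between NG2-creERTM and Nestin-creERT2 the ranges overlapped by 1 library on each side, and the edgeR difference was -1.92 ± 0.85 (unadjusted p = 0.0493, adjusted p = 0.440). Without Nestin-creERT2 replicate 3 it was -0.94 ± 0.83 (edgeR adjusted p = 0.783). Synapsin-cre against Nestin-creERT2 gave -1.45 ± 0.84 (edgeR adjusted p = 0.571), with -2.25 ± 0.88 without Synapsin-cre replicate 1 and -0.47 ± 0.83 without Nestin-creERT2 replicate 3 (edgeR adjusted p = 0.184 and 0.895). Synapsin-cre against NG2-creERTM gave 0.47 ± 0.83 (edgeR adjusted p = 0.850), and -0.34 ± 0.82 without Synapsin-cre replicate 1.

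Per kilobase of exon, the median level over the 9 libraries was 63.9 CPM per kb for Pdgfra, 11.5 for Pdgfa, 5.04 for Pdgfrb, 3.11 for Pdgfb, 2.57 for Pdgfc and 1.29 for Pdgfd. Pdgfra reached down to 12.75 and Pdgfa up to 32.2 CPM per kb, so their ranges overlapped. Pdgfa (8.39 to 32.2) and Pdgfrb (1.69 to 7.52), the next in order, did not overlap. The ranges of Pdgfrb, Pdgfb (1.94 to 7.59), Pdgfc (1.57 to 5.85) and Pdgfd (0.353 to 6.85) overlapped one another. Within each library, however, Pdgfra exceeded Pdgfrb in 9 of 9. The ratio of Pdgfra to Pdgfrb per length was 1.695, 13.25 and 5.32 in Synapsin-cre, 10.05, 55.6 and 104.6 in Nestin-creERT2 and 31.4, 9.31 and 17.05 in NG2-creERTM. Synapsin-cre replicate 1 was the library where the receptors were nearest to even, and Nestin-creERT2 replicate 3 the one where they were farthest apart.

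Pdgfa was the first of the 4 ligands per length in 9 of 9 libraries. Its share of the summed ligand CPM per kb was 42.4, 76.4 and 84.4% in Synapsin-cre, 59.0, 49.97 and 45.85% in Nestin-creERT2 and 68.4, 71.2 and 57.9% in NG2-creERTM. Behind it the order varied: Pdgfb came next in 5 libraries, Pdgfc in 3 and Pdgfd in Nestin-creERT2 replicate 3, where Pdgfd made up 29.0% of the sum. Pdgfd was the lowest ligand in 7 libraries. The summed ligands ranged from 15.6 CPM per kb in NG2-creERTM replicate 3 to 47.1 in NG2-creERTM replicate 1. Pdgfra exceeded that sum in 7 of 9 libraries, by up to 8.56-fold in Nestin-creERT2 replicate 3, and was below it, at 0.645 and 0.767 of the sum, in Synapsin-cre replicates 1 and 3. Pdgfa alone exceeded Pdgfra in 1 library, Synapsin-cre replicate 3, at 29.5 against 26.8 CPM per kb.

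**Figure D3:**
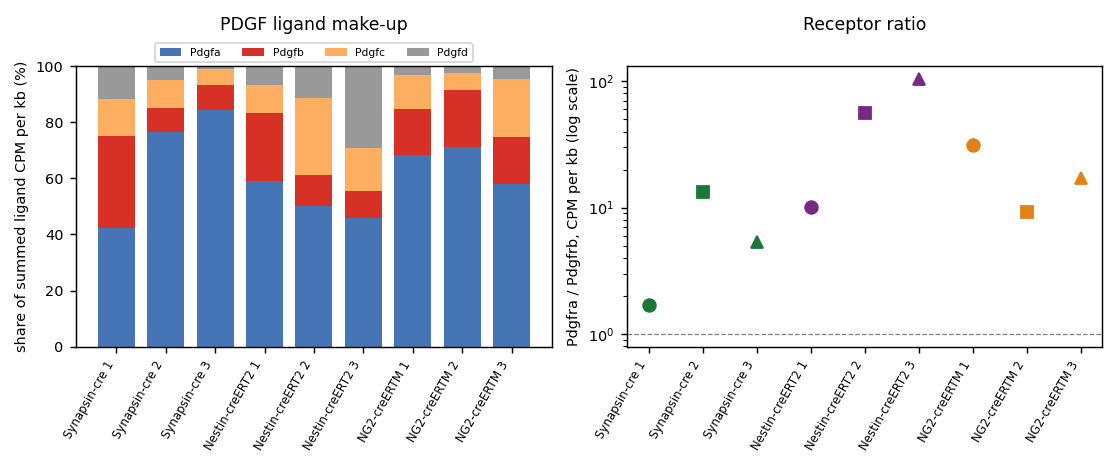
Left, the share of each ligand in the summed ligand CPM per kb, in percent, as stacked bars for each library; right, the ratio of Pdgfra to Pdgfrb in CPM per kb (log axis), with a dashed line at even levels. Pdgfa is the largest part of every bar, from 42.4 to 84.4%, and all 9 ratios lie above the line, from 1.695 to 104.6.

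Pdgfra was set against markers of oligodendrocyte precursors, the brain cell that carries the alpha receptor, across the 9 libraries. Its log2 CPM and the mean log2 CPM of 14 markers had Pearson r = 0.894 (exact permutation p = 0.00139, adjusted over the 5 relations tested 0.00694) and Spearman rho = 0.817 (exact permutation p = 0.0108, adjusted 0.05385). Without the 2 libraries farthest from the median of the markers, Synapsin-cre replicate 1 and Nestin-creERT2 replicate 3, r was 0.717 (exact permutation p = 0.0679), so the relation rests in part on these. Without Synapsin-cre replicate 1 alone r was 0.808 (exact permutation p = 0.0179, adjusted 0.0515). With each value set against the mean of its model, and libraries permuted within models only (216 arrangements, smallest possible p 0.00463), r was 0.883 (exact permutation p = 0.0278, adjusted 0.0926). Olig2, a transcription factor of these cells and 1 of the 14, measured 39.0, 254 and 109 CPM in Synapsin-cre, 250, 515 and 809 CPM in Nestin-creERT2 and 586, 259 and 237 CPM in NG2-creERTM. Its lowest and highest libraries were those of Pdgfra, but Olig2 is named for its high correlation with Pdgfra in these same libraries. Sox10, another of the 14, measured 145, 921 and 1090 CPM in Synapsin-cre and 25.7, 72.2 and 380 CPM in Nestin-creERT2. In NG2-creERTM Sox10 was at 975, 965 and 931 CPM. For Synapsin-cre against Nestin-creERT2, 4 of the 14 markers had a positive difference and 10 a negative one. The summed markers ranged from 1178 to 4175 CPM in Synapsin-cre, 2690 to 10243 CPM in Nestin-creERT2 and 3882 to 7478 CPM in NG2-creERTM, and whether the share of such cells sets Pdgfra was not tested. With fibroblast and meningeal markers, another source of the alpha receptor, r was -0.246 (exact permutation p = 0.527) and rho -0.217.

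Pdgfrb was set against the markers of mural and connective tissue cells, where the beta receptor is known. With 14 pericyte and smooth muscle markers r was 0.698 (exact permutation p = 0.0376, adjusted 0.0470) and rho 0.483 (exact permutation p = 0.194). With 14 fibroblast and meningeal markers r was 0.754 (exact permutation p = 0.01735, adjusted 0.0289) and rho 0.633 (exact permutation p = 0.0760). Both were weaker within models, where 9 libraries are too few to show that a relation is absent. Within models, r was 0.499 with the pericyte markers (exact permutation p = 0.264, adjusted 0.440) and 0.286 with the fibroblast markers (exact permutation p = 0.593). In NG2-creERTM the library with the highest mean log2 CPM of the fibroblast markers, replicate 3, had the lowest Pdgfrb. By summed CPM, however, replicate 3 was the lowest of that model for these markers, at 592 CPM against 1304 and 636 CPM. Leaving out the 2 libraries farthest from the marker median gave 0.665 for pericytes (NG2-creERTM replicate 1 and Nestin-creERT2 replicate 3, exact permutation p = 0.104) and 0.915 for fibroblasts (Nestin-creERT2 replicate 2 and NG2-creERTM replicate 3, exact permutation p = 0.00873). Leaving out Nestin-creERT2 replicate 2 alone gave 0.607 and 0.569, and Nestin-creERT2 replicate 3 alone 0.591 and 0.702, with adjusted p of 0.107 to 0.186. Over the 9 removals of 1 library the adjusted p was above 0.05 in 7 for the pericyte relation and 5 for the fibroblast relation. Pericyte markers summed to 169 to 216 CPM in Nestin-creERT2, below the 401 to 628 CPM of Synapsin-cre and the 553 to 1045 CPM of NG2-creERTM. Of the 14, 11 had a positive difference for NG2-creERTM against Nestin-creERT2, with a median of 1.70, and 11 for Synapsin-cre against Nestin-creERT2, with a median of 0.69, beside medians of 0.02 and 0.13 over all genes tested. None of these passed edgeR's test. Rgs5, a gene of brain pericytes, was at 51.9, 49.6 and 40.9 CPM in Nestin-creERT2 and at 282, 221 and 73.4 CPM in NG2-creERTM, while in Synapsin-cre its 107, 40.9 and 77.1 CPM overlapped Nestin-creERT2.

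Fibroblast markers summed to 95.3 to 332 CPM in Nestin-creERT2, 236 to 378 CPM in Synapsin-cre and 592 to 1304 CPM in NG2-creERTM. Their median difference from Nestin-creERT2 was 2.71 in NG2-creERTM and 1.43 in Synapsin-cre, with 10 of 14 positive in each. No pericyte, fibroblast or endothelial marker was at 0 throughout, though Twist1, a mesenchymal transcription factor, was at 0 in a Nestin-creERT2 library. Other marker lists differed between the same models. Schwann cell and neural crest markers had larger medians, 3.52 and 2.57, with 11 of 12 positive in each comparison. Endothelial markers had medians of 0.86 and 0.80 (11 and 12 of 14 positive), and astrocyte markers -1.78 and -0.71 (13 and 11 of 14 negative). Neuron markers had medians of -2.79, with 14 of 14 negative, and 0.25, with 9 of 14 positive. No marker of these lists passed edgeR's test, and the part of these cells in the Pdgfrb difference was not tested. The sex-linked genes separated Synapsin-cre from Nestin-creERT2. Xist, the RNA of the silenced X chromosome, was at 778 to 1810 CPM in Nestin-creERT2 and 1.02 to 1.28 CPM in Synapsin-cre, and the Y-linked Ddx3y at 0 to 0.0715 and 59.2 to 66.9 CPM. NG2-creERTM was mixed, with Xist at 0.989 to 1320 and Ddx3y at 0.0523 to 71.7 CPM. The NG2-creERTM library with Xist at 1320 CPM, replicate 2, had Pdgfrb at 36.6 CPM, against 31.5 and 20.5 CPM in replicates 1 and 3. This is 1 library, and a link between sex and Pdgfrb was not tested. Sex and model cannot be told apart between Synapsin-cre and Nestin-creERT2.

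Pdgfb was set against 14 endothelial markers, r = 0.797 (exact permutation p = 0.0132, adjusted 0.0289) and rho = 0.667 (exact permutation p = 0.0589). Without Synapsin-cre replicate 1 and Nestin-creERT2 replicate 3, the farthest from the marker median, r was 0.722 (exact permutation p = 0.0726). Within models r was 0.829 (exact permutation p = 0.0370, adjusted 0.0926). The adjusted p was above 0.05 in 4 of the 9 removals of 1 library, reaching 0.0745. Endothelial markers summed to 259 to 461 CPM in Synapsin-cre, 164 to 272 CPM in Nestin-creERT2 and 245 to 449 CPM in NG2-creERTM. In each model the library with the highest sum also had the highest Pdgfb.

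**Figure D4:**
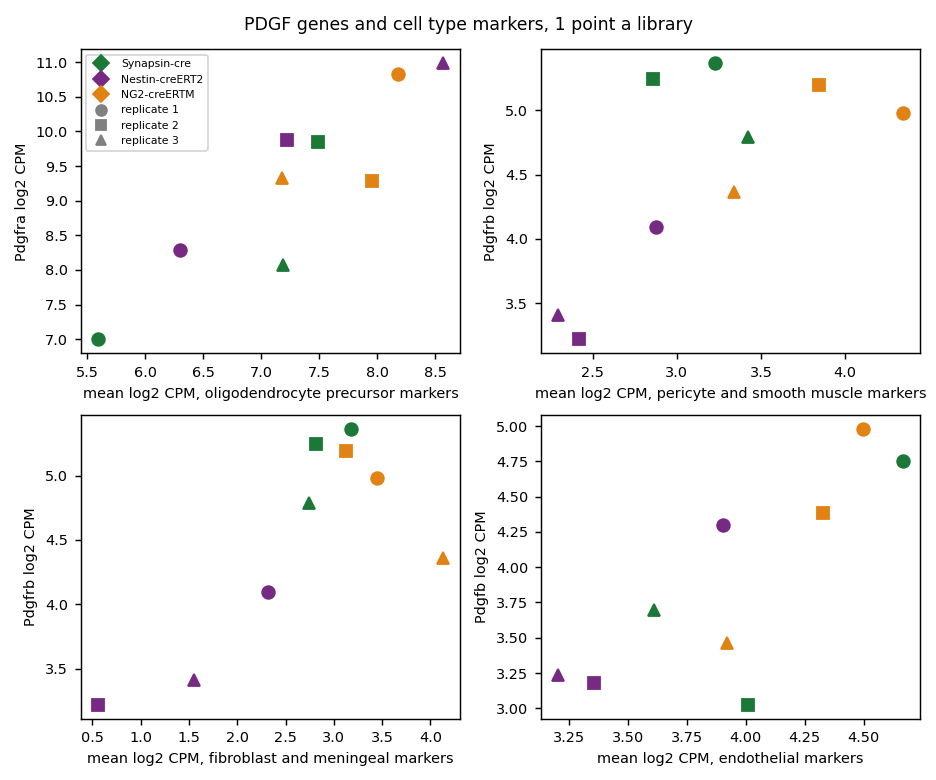
Log2 CPM of a PDGF gene (vertical) against the mean log2 CPM of a marker list (horizontal), with 1 point per library, coloured by model and shaped by replicate. Pdgfra and the precursor markers share their lowest and highest libraries, Synapsin-cre replicate 1 and Nestin-creERT2 replicate 3 (r = 0.894), and the Nestin-creERT2 points lie lowest for Pdgfrb in both of its panels.

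The genes whose log2 CPM followed each member most closely over the 9 libraries were found among all tested genes, as a description. For Pdgfra they were Ednrb (r = 0.959), an endothelin receptor, Cntn1 (0.948), Adgrl3 (0.946), Cacng4 (0.938) and Olig2 (0.937). Cacng4 and Olig2 are also in the precursor marker list. Without Synapsin-cre replicate 1 these last 2 genes ranked 18 and 21, while Ednrb, Cntn1 and Adgrl3 ranked 4, 2 and 3. For Pdgfrb they were Rbpms (0.9545), Robo4 (0.944), Scarf1 (0.932), Egfl7 (0.9315) and Apold1 (0.930), of which Robo4 and Egfl7 are endothelial markers. Without that library they ranked 9, 15, 32, 30 and 38. The closest to Pdgfb was Notch4 (0.958), an endothelial Notch receptor, followed by Zfp385b (0.937), Tmem184b (0.913), F11r (0.9055) and Arap3 (0.8925). Their ranks without that library were 4, 6, 15, 25 and 35. Pdgfa was followed by Col2a1 (0.977), the cartilage collagen, Ttc37 (0.959), Txndc5 (0.948), Xrcc1 (0.934) and Hk2 (0.931). Col2a1 was high where Pdgfa was highest, at 650 CPM in the third Synapsin-cre library and 426 CPM in the first NG2-creERTM library, and stayed at 7.27 to 72.1 CPM elsewhere. Pdgfc was followed by Qpctl (0.9725), Snx16, Man2b2, Triqk and Taf7 (0.900), and Pdgfd by Dpp8 (0.942), Igdcc4, Dnm1l, Fndc1 and Phactr3 (0.922).

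Among the members themselves, r of Pdgfra with the ligands of its receptor was 0.59 for Pdgfc, 0.22 for Pdgfa and -0.33 for Pdgfb, and 0.37 for Pdgfd. Without Synapsin-cre replicate 1 these were 0.71, -0.06, -0.05 and 0.74. The receptors had r = -0.41, and -0.21 without that library. Pdgfrb and Pdgfb had r = 0.52 (0.42 without it), and Pdgfrb and Pdgfd r = -0.52 (-0.70 without it). These are descriptions over 9 and 8 libraries that share their depth and tissue make-up.

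The Pdgfra neighbourhood on chromosome 5 was read to see whether the libraries with most Pdgfra also held more RNA of the genes beside it. Each gene was set against its own median over the 9 libraries, on a log2 scale. Pdgfra stood at -2.32, 0.52 and -1.25 in Synapsin-cre, -1.03, 0.555 and 1.66 in Nestin-creERT2 and 1.498, -0.04 and 0 in NG2-creERTM. The 13 neighbours with a mean of at least 2 CPM, Usp46 to Cep135, had medians of -0.36 to 0.24 in every library. In Nestin-creERT2 replicate 3 their median was 0.00, with single genes from -0.42 to 1.38, and in NG2-creERTM replicate 1 it was 0, with single genes from -0.31 to 1.07. The largest departures were Rasl11b at 1.38 in Nestin-creERT2 replicate 3 and Kdr at 1.07 in NG2-creERTM replicate 1. Scfd2 and Fip1l1 stood at 0.79 and 0.66 in the former library and at -0.31 and 0 in the latter. Tmem165 and Srd5a3 stood at -0.003 and -0.18 in the former and at 0.71 and 0.60 in the latter. Gsx2, 0.077 Mb away, was left out for its mean of 1.78 CPM. It stood at -0.78 in Nestin-creERT2 replicate 3 and 2.31 in NG2-creERTM replicate 1. Over the 9 libraries the log2 CPM of Fip1l1 had r = 0.84 with that of Pdgfra, Scfd2 0.73, Chic2 0.71, Tmem165 0.69 and Srd5a3 0.64, while Rasl11b had -0.49 and Cep135 -0.42. These r are given over all 9 libraries only, and they rest in part on Synapsin-cre replicate 1. That library was the lowest for Pdgfra, Fip1l1 (-1.33), Chic2 (-1.03), Tmem165 (-1.35) and Srd5a3 (-0.99), and the highest for Rasl11b (4.16). Kit, a related receptor tyrosine kinase 0.423 Mb from Pdgfra, spanned 19.3 to 74.2 CPM over all libraries and stood at 64.4 CPM in the Nestin-creERT2 library highest for Pdgfra and at 68.9 in the NG2-creERTM one. Chic2, 0.154 Mb away on the other side, spanned 20.9 to 62.4 CPM. Kdr, the VEGF receptor of endothelial cells, is 0.781 Mb away. Gene copy number was not measured.

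**Figure D5:**
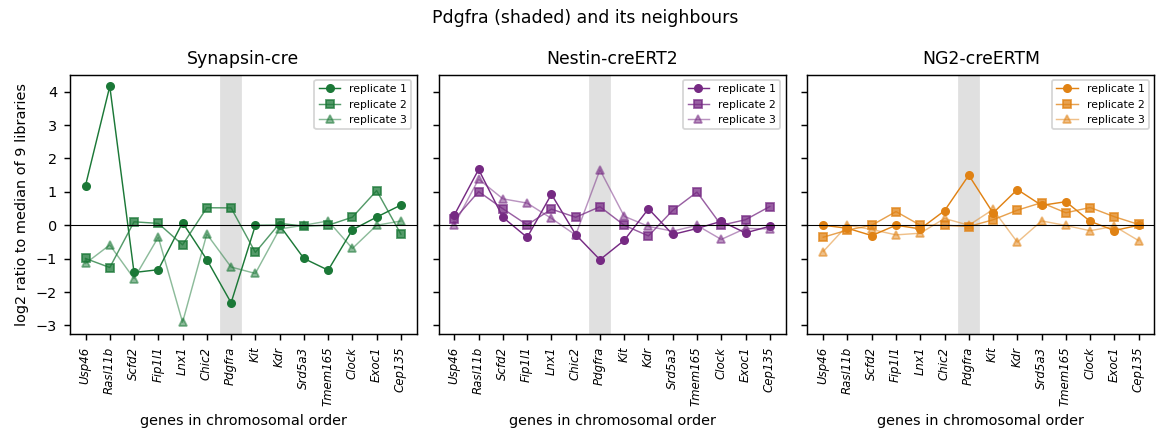
Log2 ratio of each gene's level to its own median over 9 libraries (vertical) for Pdgfra (shaded) and its 13 neighbours in chromosomal order (horizontal), with 1 line per library and 1 panel per model. Pdgfra stands at 1.66 in Nestin-creERT2 replicate 3 and 1.498 in NG2-creERTM replicate 1, where the medians of the neighbours are 0.00 and 0.

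The rest of the pathway was read from lists of genes that act on the ligands or receptors, and none of their members passed edgeR's test in any pair of models. The 11 genes of ligand processing and co-reception had median differences of -0.01 for NG2-creERTM against Nestin-creERT2, -0.30 for Synapsin-cre against Nestin-creERT2 and 0.03 for Synapsin-cre against NG2-creERTM. The medians of all tested genes were 0.02, 0.13 and 0.08. Plat, the tissue plasminogen activator that cuts PDGF-C, measured 113, 316 and 155 CPM in Synapsin-cre, 285, 133 and 174 CPM in Nestin-creERT2 and 139, 160 and 358 CPM in NG2-creERTM. Sparc, a matrix protein that binds PDGF-B, ranged from 707 to 2741 CPM, and Lrp1, a PDGF co-receptor, from 315 to 1150 CPM. The models overlapped for each of the 3.

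For the 22 genes that relay the receptor signal, the median differences in the same order were 0.04, -0.06 and -0.06, with 1 unadjusted p under 0.05 in each pair. Plcg1, the phospholipase that binds the activated receptors, was at 91.1, 75.3 and 65.3 CPM in NG2-creERTM, below the 145 to 176 CPM of the other 6 libraries. Its edgeR difference was -1.02 ± 0.25 for NG2-creERTM against Nestin-creERT2 (adjusted p = 0.286) and 1.03 ± 0.25 for Synapsin-cre against NG2-creERTM (adjusted p = 0.357). Of all genes, 14.2% lay lower without overlap in NG2-creERTM than in Nestin-creERT2, and 8.04% higher in Synapsin-cre than in NG2-creERTM. Ptpn11, the phosphatase that carries the signal to RAS, stayed within 219 to 404 CPM.

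The 15 genes that restrain the signal had medians of 0.20, 0.26 and 0.20, with 2, 1 and 2 unadjusted p under 0.05. Nf1, a RAS inhibitor, measured 114.5, 185 and 108 CPM in Synapsin-cre and 49.5, 53.8 and 58.9 CPM in Nestin-creERT2, without overlap. Such a separation in this direction was shared by 8.46% of all genes. In NG2-creERTM Nf1 measured 48.2, 45.75 and 102 CPM, and its edgeR difference of Synapsin-cre from Nestin-creERT2 was 1.33 ± 0.38 (adjusted p = 0.329). The feedback inhibitor Spry1 was at 16.2 CPM in Synapsin-cre replicate 1 and at 68.7 to 154 CPM in the other 8 libraries.

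Of the 15 related receptors and ligands, 14 were matched in the files, and their medians were 0.13, 0.28 and 0.25. Kitl, the ligand of Kit, was at 97.2, 82.0 and 101 CPM in Nestin-creERT2, above the 22.9 to 37.2 CPM of NG2-creERTM and the 35.3, 2.26 and 13.2 CPM of Synapsin-cre. The edgeR difference of Synapsin-cre from Nestin-creERT2 was -2.47 ± 0.76 (adjusted p = 0.346). Shares of all genes lower without overlap than in Nestin-creERT2 were 14.2% in NG2-creERTM and 6.26% in Synapsin-cre. Vegfa, the endothelial growth factor, measured 109, 619 and 1026 CPM in Synapsin-cre, 152, 78.5 and 75.9 CPM in Nestin-creERT2 and 674, 611 and 70.8 CPM in NG2-creERTM. It overlapped between models, with edgeR differences from Nestin-creERT2 of 2.14 ± 0.91 in NG2-creERTM and 2.52 ± 0.93 in Synapsin-cre (adjusted p = 0.430 and 0.401).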

How the data were processed

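Total RNA from 9 primary glioblastoma tissues was sequenced, per the labels. The deposited files hold read counts per gene, made by the authors with STAR and HTSeq on mm10 per the submitters' processing notes, which give no versions or settings; the annotation release is not given in the sources used here. The counts of 1 strand were used, since the other held 3.25 to 3.64% of reads in genes, and the 4 summary lines of each file were left out (17.9 to 27.3% of reads). Of 46517 identifiers 46005 matched GENCODE vM21.

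After filterByExpr and TMM scaling, the 9 libraries went into 1 quasi-likelihood fit with the model as group (edgeR 4.0.16 in R 4.3.3). Tests were 2-sided, and p-values of the 17947 genes were adjusted by Benjamini-Hochberg, with a threshold of 0.05. The SE of an edgeR difference is an approximation: its absolute log2 fold change divided by the square root of the test's F statistic. CPM use TMM library sizes; log2 CPM for correlations use a prior count of 2. The scripts were tested on simulated data. Alternatives were other scalings and filters, DESeq2 1.42.0, limma 3.58.1 voom, unstranded counts, 2 models only and leaving out each library; 2 models only without Synapsin-cre replicate 1, and correlations within models, were added after seeing the data. The members, lists and tests were chosen with earlier results of these data known. Named genes are the members, the 5 genes most correlated with each (leaving out predicted genes and pseudogenes), from each list the 3 most abundant and the 1 with the smallest p, and the Pdgfra neighbourhood. Twist1, Xist, Ddx3y and 6330403L08Rik were named after their values were seen.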

Additional observations from a re-analysis of the deposited data

Results flagged for a closer look

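Reads on the strand opposite to the one counted were above the limit of 3 counts that a count of 0 allows in every library for 2 of the 6 members. For Pdgfra there were 4 to 137 such reads, 0.0827 to 0.410% of its reads on both strands. Over all libraries its share was 0.169%, which 54.2% of tested genes reached, so the share of Pdgfra was not unusual. For Pdgfa there were 100 to 347, or 6.65 to 14.5% of its reads, and 10.1% over all libraries, a share that 10.5% of tested genes reached. The antisense gene 6330403L08Rik overlaps Pdgfa on that strand. Groups of 3 libraries were not tested for single outlying libraries.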

How the results depend on the processing

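Of 336 alternative values of the 18 fold changes of members, 317 kept their direction and side of the threshold, 17 reversed and 2 passed it, the Pdgfrb differences from Nestin-creERT2 under DESeq2 (1.27 and 1.52). Reversed were Pdgfra for NG2-creERTM against Nestin-creERT2 (voom 0.11, with quality weights 0.013, leaving out 1 library -0.79 to 0.71), Pdgfc there (-0.59 to 0.33), Pdgfb for Synapsin-cre against Nestin-creERT2 (quality weights -0.24, added fit -0.28, leaving out 1 library -0.28 to 0.74) and, for Synapsin-cre against NG2-creERTM, Pdgfa (0.22, 0.22, -0.66 to 0.43) and Pdgfd (added fit -0.36, leaving out 1 library -0.34 to 0.90). The causes were not tested. The count of genes called, 0 in each main test, became 621, 506 and 438 with DESeq2 for the pairs in the order used above. It became 160 and 266 with quality weights, 12 and 12 with no filter and 237 and 5 with 2 models only in the pairs with Nestin-creERT2. Unstranded counts gave 1 in Synapsin-cre against Nestin-creERT2. The test of any difference gave 23 with no filter and 94 with quality weights. Leaving out 1 library gave 0 to 124, 0 to 273, 0 to 1 and, for any difference, 0 to 346, the highest without Synapsin-cre replicate 1; the added fit gave 431 and 1 in the Synapsin-cre pairs. Pearson r without the farthest 2 libraries was 0.717, 0.665 and 0.722 for Pdgfra with precursor, Pdgfrb with pericyte and Pdgfb with endothelial markers, and 0.691 for Pdgfrb with pericyte markers at a prior count of 0.5, each no longer past the threshold. Within models r was 0.883, 0.499 and 0.829 for these and 0.286 for Pdgfrb with fibroblast markers, none past it. Leaving out 1 library gave 0.808 to 0.937, 0.591 to 0.824 and 0.740 to 0.917 for these and 0.569 to 0.930 for Pdgfrb with fibroblast markers, with the threshold missed in 1, 7, 4 and 5 of 9 removals. No paired analysis was possible because the labels give no numbers shared between models: the replicate numbers used here follow the order of the samples and tie no library to another. With 3 libraries per model, a biological coefficient of variation of 0.612 limits what can be called.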
